A study of Mus musculus with 24 samples.

Results

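The mitochondrial respiratory chain was followed through 61 nuclear genes in 24 mouse pups of the BALB-c strain, aged 10 days, from which the right hippocampus was taken. The genes were chosen by symbol: rows of the expression table whose platform annotation gives a single symbol that begins with Nduf, Uqcr or Atp5, or that is Sdha to Sdhd, Cycs, Cyc1 or a Cox4 to Cox8 subunit, with the row of highest mean kept for each gene. All 61 had 1 row each among the 23238 rows of the table, of which 14939 carry a single symbol. By enzyme complex the members were 27 subunits of complex I, 4 of complex II, 6 of complex III with cytochrome c1, 10 of complex IV and 8 of complex V. The other 6 are Ndufaf proteins, which help to build complex I and are not part of it, so 55 members are subunits. Cycs had no row that carries its symbol alone, and 7 further rows carry a fitting symbol together with others and were not named. None of those 7 passed the threshold in any comparison.

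Each pup gave 1 Affymetrix Mouse Exon 1.0 ST array, hybridised with total RNA of the hippocampus on the side where the carotid artery was tied in the injured pups. There were 4 groups with 6 animals in each: sham-injured pups without treatment (sham none), sham-injured pups given high-dose recombinant erythropoietin (sham EPO), brain-injured pups without treatment (injured none) and brain-injured pups given erythropoietin (injured EPO). Erythropoietin (EPO) is a kidney hormone known for raising red blood cell output. The sources used here do not give its dose and timing, the day of injury, or the sex and litters of the pups. The sample titles can also be read in a way that exchanges sham EPO and injured none, so every direction below is as labelled.

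The respiratory chain sits in the inner mitochondrial membrane. Complexes I and II pass electrons from NADH and succinate to ubiquinone, complex III passes them to cytochrome c, and complex IV hands them to oxygen, while complexes I, III and IV pump protons. Complex V uses the proton gradient to make ATP. Neurons draw most of their ATP from this chain, and the chain matures in the rodent brain after birth. Its core proteins come partly from the mitochondrial genome, which had no members here, and partly from nuclear genes such as those followed here.

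The complex I subunits were Ndufa1, Ndufa2, Ndufa3, Ndufa5, Ndufa6, Ndufa7, Ndufa8, Ndufa9, Ndufa12, Ndufa13, Ndufb2, Ndufb3, Ndufb5, Ndufb7, Ndufb8, Ndufb9, Ndufb10, Ndufb11, Ndufc2, Ndufs1, Ndufs4, Ndufs6, Ndufs7, Ndufs8, Ndufv1, Ndufv2 and Ndufv3. The assembly factors were Ndufaf1 to Ndufaf5 and Ndufaf7. Complex II was complete with Sdha, Sdhb, Sdhc and Sdhd. Complex III was covered by Cyc1, Uqcr10, Uqcrc1, Uqcrc2, Uqcrfs1 and Uqcrq, and complex IV by Cox4i1, Cox4i2, Cox5a, Cox6a1, Cox6a2, Cox6b1, Cox7a2, Cox7b, Cox7b2 and Cox8b. Complex V was covered by Atp5a1, Atp5b, Atp5d, Atp5e, Atp5g3, Atp5j2, Atp5mpl and Atp5pb.

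Values are log2 expression values on the RMA scale, so a difference of 1 is a doubling. The arrays did not lie on exactly equal distributions. Array medians over all rows ran from 5.12 to 5.25 in sham none, 5.30 to 5.43 in sham EPO, 5.18 to 5.33 in injured none and 5.05 to 5.37 in injured EPO. All sham EPO medians therefore lay above all sham none medians, whereas the upper quartiles overlapped (7.32 to 7.69 and 7.45 to 7.61). One injured EPO array, replicate 3, stood apart with the lowest median (5.05) and upper quartile (7.05), and the 61 members lay on average 0.35 below their own means on it. Cell type markers also differed in sham EPO against sham none: 8 of 9 neuron markers fell, while 7 of 8 microglia and macrophage, 4 of 6 astrocyte, 4 of 5 endothelial and 4 of 5 leukocyte markers rose. The marker counts are of genes past a limma adjusted p of 0.05, beside 11.5% of all rows called higher and 7.6% lower. The log2 summed level of the neuron markers ran from 13.11 to 13.60 in sham EPO and from 14.01 to 14.27 in sham none, and that of the microglia and macrophage markers from 11.79 to 12.18 and from 9.57 to 10.16. Of the oligodendrocyte markers 1 of 7 rose, and of the choroid plexus markers 0 of 4 passed the threshold. The choroid plexus sum was 7.60 on sham none replicate 5 and at least 12.50 in every array of the other groups. The leukocyte markers were the lowest of these lists, with sums from 5.49 to 7.39. The part of these shifts in the results below was not tested, and in bulk tissue fewer cells of a type and less RNA per cell cannot be told apart. In injured none against sham none, as labelled, 0 of 9 neuron and 0 of 8 microglia and macrophage markers passed, beside 0.0% of all rows. The other reading of the titles would exchange these marker results between sham EPO and injured none. Which reading holds was not tested.

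**Figure D1:**
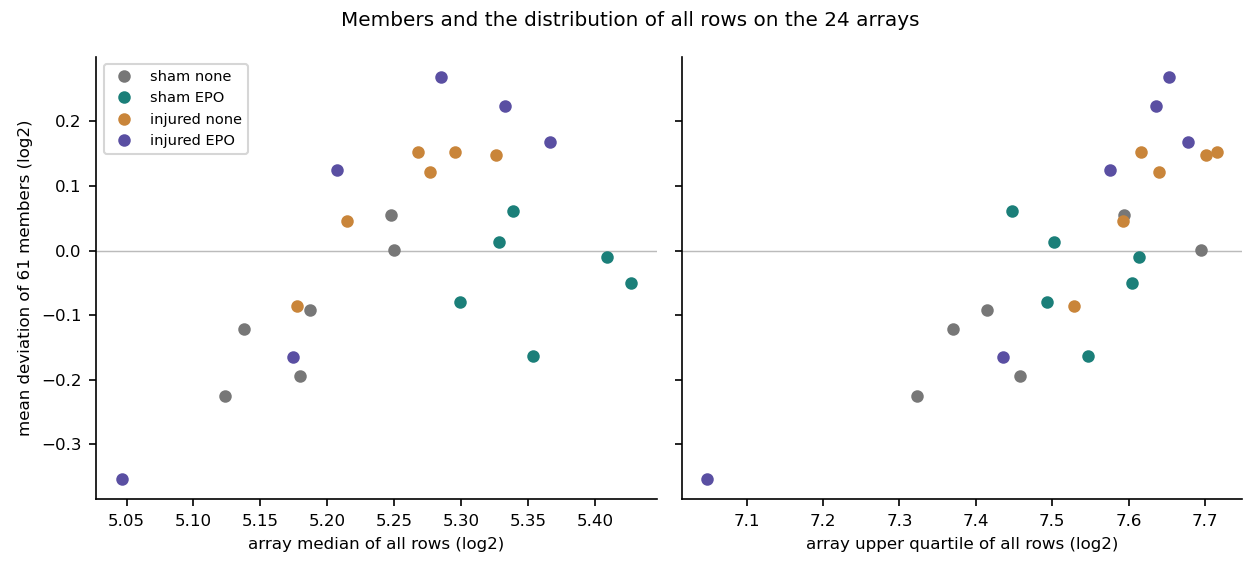
Mean deviation of the 61 members from their own means (log2, y axis) on each of the 24 arrays against the array's median (left) and upper quartile (right) over all rows (log2, x axes), with 1 point per array coloured by group. The injured EPO array at the lower left of both panels has a median of 5.05, an upper quartile of 7.05 and a member mean of -0.35, and the sham EPO arrays lie to the right of the sham none arrays on the median axis.

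As labelled, EPO among sham-injured pups went with few changes in the respiratory chain. Ndufb7, Sdhc and Atp5e rose and Ndufs1 fell, by 1.20- to 1.53-fold, and the other 57 members did not pass the threshold. The 3 rises stood beside 11.5% of all rows called higher, and the 1 fall with 7.6% of all rows called lower (limma, Benjamini-Hochberg adjusted p under 0.05 over all 23238 rows). Over the members the median difference was 0.044 on the log2 scale, beside 0.026 over all rows. Of the members' differences 39 were positive and 22 negative, beside 45.1% of all rows negative. That balance turned with the scaling, to 16 positive and 45 negative with arrays centred on their medians (median -0.13) and 30 and 31 with arrays centred on their upper quartiles. For 49 of 61 members the 95% interval of the difference lay within 1.5-fold either way, as it did for 60.7% of all rows.

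**Figure D2:**
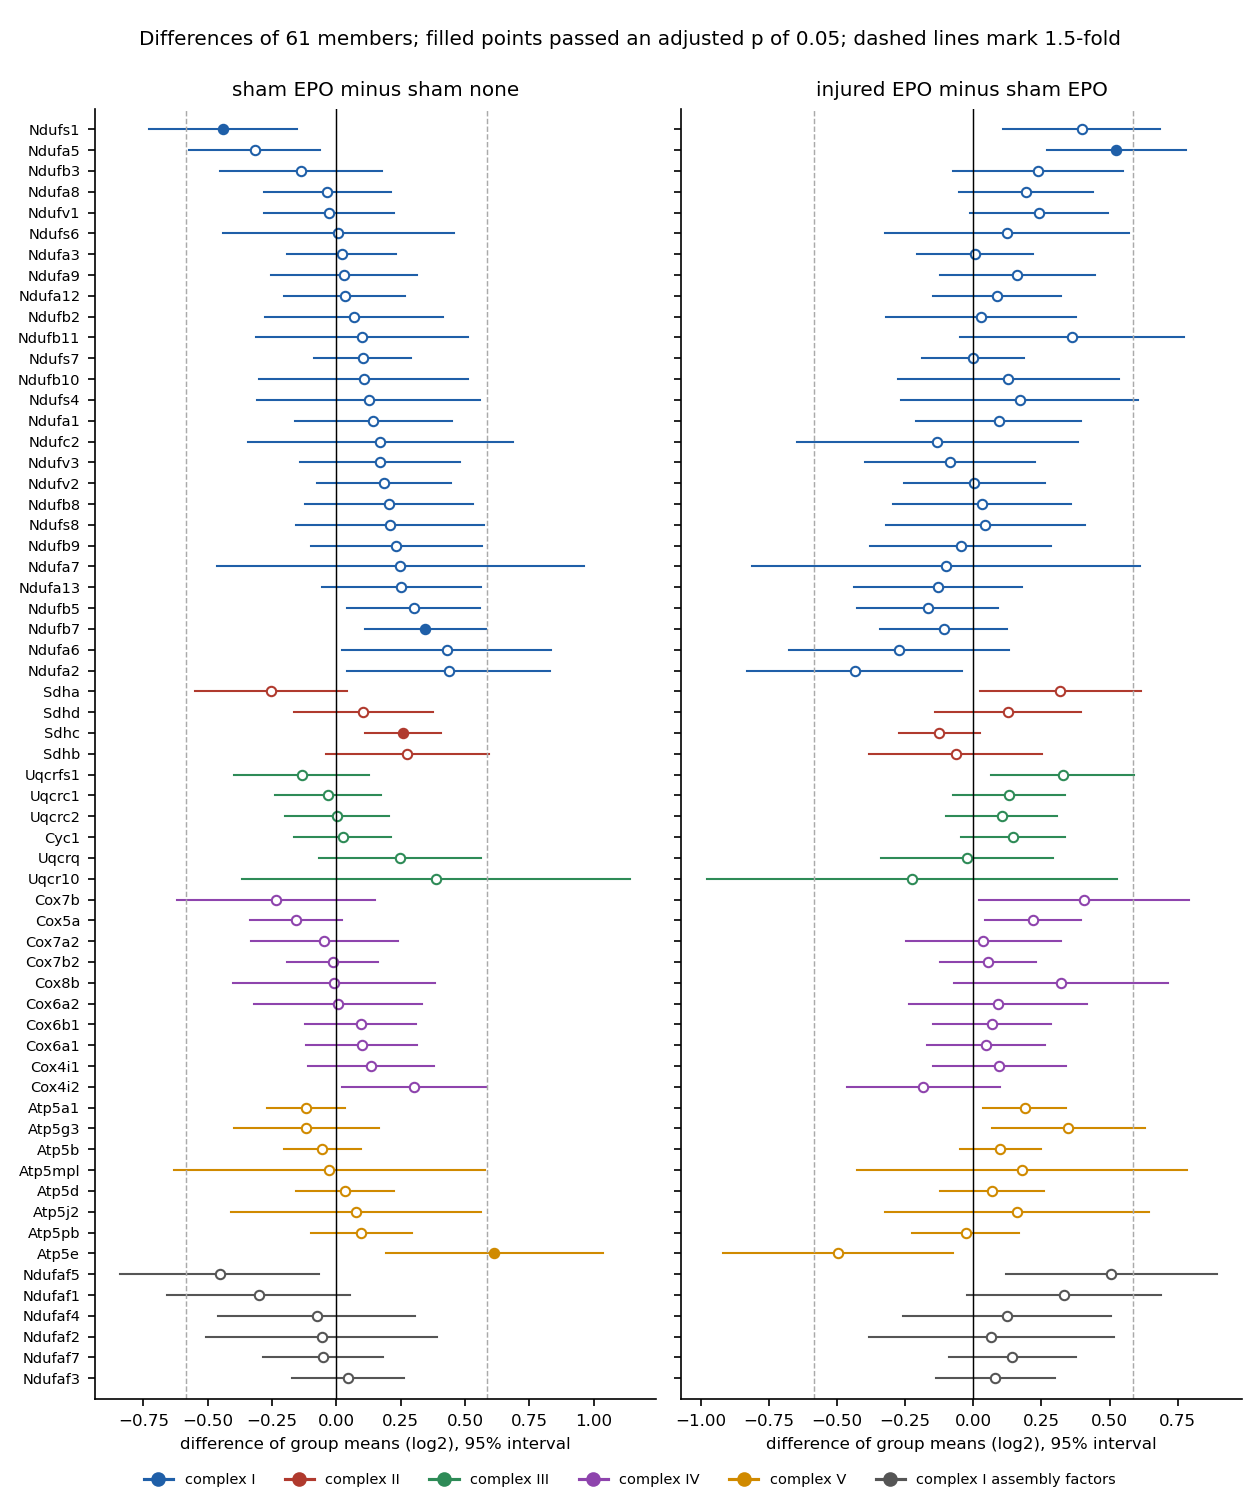
Difference of group means (log2, x axis) with its 95% interval for each of the 61 members (y axis, coloured by complex), for sham EPO minus sham none (left) and injured EPO minus sham EPO (right), 6 arrays a group. Filled points passed an adjusted p of 0.05, dashed lines mark 1.5-fold, and the filled points are Ndufs1, Ndufb7, Sdhc and Atp5e on the left and Ndufa5 on the right; both panels share the sham EPO arrays.

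Complex I held a rise and a fall. Ndufs1, the large iron-sulfur subunit that carries electrons through the matrix arm, had values of 9.47, 9.69 and 10.16 (lowest, median and highest) in sham none and 9.05, 9.30 and 9.52 in sham EPO. The groups overlapped in 1 sham EPO array, since 5 of the 6 lay below every sham none array. The fall was 0.44 on the log2 scale (SE 0.14), a ratio of 0.737 (95% interval 0.603 to 0.900), with an adjusted p of 0.027. Ndufs1 ran from 9.62 to 10.09 in injured none and from 9.12 to 10.01 in injured EPO. Ndufb7, a small accessory subunit of the membrane arm, had values of 8.23, 8.37 and 8.58 in sham none and 8.61, 8.69 and 8.91 in sham EPO. The groups did not overlap, with all 6 sham EPO arrays higher. The rise was 0.34 (SE 0.11), or 1.27-fold (1.08 to 1.49), with an adjusted p of 0.034. The other 25 complex I subunits did not pass. They include Ndufv1, which binds NADH and the flavin at the entry of the chain, with a difference of -0.03 (SE 0.12, adjusted p 0.92). Over all 27 the differences ran from -0.44 to 0.44 with a median of 0.13, and 22 were positive.

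Complex II links the chain to the citric acid cycle. Sdhc, the membrane anchor that helps to bind ubiquinone, had values of 8.12, 8.24 and 8.28 in sham none and 8.30, 8.49 and 8.69 in sham EPO, with no overlap. The rise was 0.26 (SE 0.07), or 1.20-fold (1.08 to 1.33), with an adjusted p of 0.010, and Sdhc had the smallest spread within groups of all members (pooled SD 0.10). Sdhb, the iron-sulfur subunit, differed by 0.28 (SE 0.15) and Sdha, the flavoprotein that oxidises succinate, by -0.26 (SE 0.14), with adjusted p of 0.25 each. Neither of them passed the threshold.

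In complex V, Atp5e, the epsilon subunit of the central stalk, had values of 6.82, 6.92 and 7.45 in sham none and 7.30, 7.69 and 7.84 in sham EPO. The groups overlapped through 1 sham EPO array, the other 5 being higher than the whole sham none group. The rise of 0.61 (SE 0.20) was 1.53-fold (1.14 to 2.05), with an adjusted p of 0.036. In the catalytic core, Atp5b, the beta subunit, differed by -0.05 (95% interval -0.20 to 0.09) and Atp5a1, the alpha subunit, by -0.12 (-0.27 to 0.03). Over the 8 members the differences ran from -0.12 to 0.61 with a median of 0.0024.

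**Figure D3:**
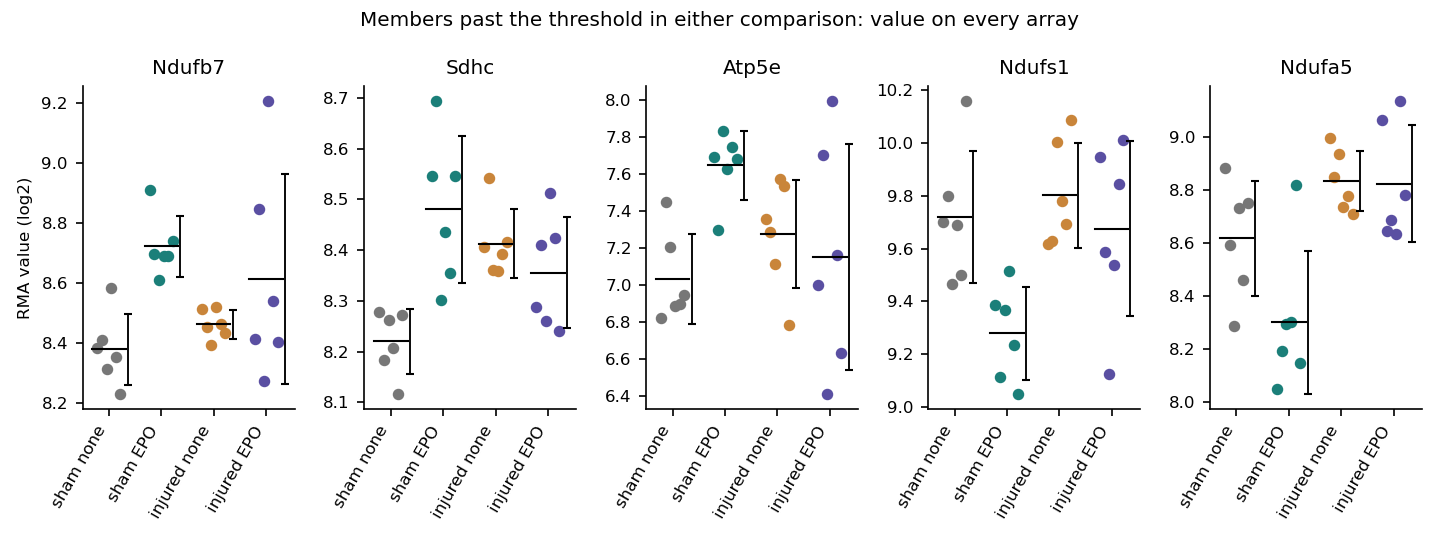
RMA values (log2, y axis) of the 5 members past the threshold in sham EPO against sham none or in injured EPO against sham EPO, 1 point per array in each of 4 groups of 6 (x axis); horizontal bars are group means and whiskers 1 SD. Ndufb7 and Sdhc show no overlap between sham none and sham EPO, and the injured EPO arrays spread widely for Atp5e (lowest 6.41, median 7.08).

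No member of complexes III and IV or of the assembly factors passed in this comparison. In complex III the smallest p was that of Uqcrq, a small subunit near the quinone site, with values of 9.40, 9.46 and 9.54 in sham none and 9.38, 9.76 and 9.97 in sham EPO (difference 0.25, SE 0.15, adjusted p 0.31). Uqcrfs1, the Rieske iron-sulfur protein, differed by -0.13 (SE 0.13), Uqcrc1, a core protein, by -0.03 (SE 0.10), and Cyc1, cytochrome c1, by 0.02 (SE 0.09). In complex IV, Cox4i1 differed by 0.13 (SE 0.12) and Cox5a by -0.16 (SE 0.09). Cox4i2, the alternative subunit IV linked to low oxygen and best known from lung, had values of 5.02, 5.16 and 5.45 in sham none and 5.30, 5.51 and 5.74 in sham EPO. Its difference of 0.30 (SE 0.14) had an adjusted p of 0.13, and 5 of 6 sham EPO arrays exceeded the highest value in sham none. The muscle isoforms Cox6a2 (0.01, SE 0.16) and Cox8b (-0.01, SE 0.19) and Cox7b2 (-0.02, SE 0.09) were close to 0, and Cox7b2 had a mean level of only 2.32. Among the assembly factors Ndufaf5, which modifies a complex I core subunit, had values of 6.04, 6.51 and 6.80 in sham none and 5.56, 5.99 and 6.45 in sham EPO. Its difference of -0.45 (SE 0.19) had an adjusted p of 0.099, and 5 of the 6 assembly factors had a negative difference.

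Of the 4 calls, the 3 rises depended on the scaling, and those of Ndufs1, Ndufb7 and Atp5e on single arrays. After centring of each array on its median, with all rows then at a median of -0.15 in place of 0.026, no member was called higher and 8 were called lower (Ndufa5, Ndufs1, Ndufaf1, Ndufaf5, Sdha, Cox5a, Atp5a1 and Atp5b), beside 7.7% of all rows higher and 18.4% lower. With arrays centred on their upper quartiles 2 were called higher and 2 lower, beside 10.7% and 10.3% of all rows. Ndufs1 was called lower under each of these scalings, whereas Sdhc and Ndufb7 were not called higher under either centring. None passed once the code in the sample titles, whose meaning is not given, entered as a fixed block, or among the 11 arrays of code 3D alone. Under the block the differences were 0.30 for Ndufb7, 0.24 for Sdhc, 0.57 for Atp5e and -0.31 for Ndufs1. Within code 3D they were 0.29, 0.15, 0.40 and -0.19. With the code as a random block the correlation within codes was 0.0048. The share of all rows called was not set beside either loss, so these losses are not particular to the members. Leaving out sham EPO replicates 1 or 6 or sham none replicates 1, 5 or 6 left 1 member called higher, and leaving out sham EPO replicates 2 or 6 or sham none replicates 2 or 6 left none called lower. Sdhc passed in all 24 fits that left out 1 array, Ndufs1 failed in 4, Ndufb7 in 6 and Atp5e in 9, and without injured EPO replicate 3 there were 4 higher and 1 lower. Among the 11619 rows with the higher means the background was 17.1% higher and 15.3% lower, and the 57 members it held again gave 3 and 1.

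Promoter windows from RefSeq (GRCm38.p6) were at hand for 49 members, and for 3 of the 5 members that passed in sham EPO against sham none or in injured EPO against sham EPO. The 250 bases before the start of these 3 are shown because nuclear genes of the chain are known to share sites for ETS factors and NRF1. Sequences run 5′ to 3′ on the gene's strand, and capitals mark a match to CCGGAAG (ETS) or GCGCANGCG (NRF1) on either strand. The windows are chr8:83566508-83566757 (plus strand) for Ndufb7, chr2:174464102-174464351 (minus strand) for Atp5e and chr6:24527691-24527940 (minus strand) for Ndufa5, an accessory subunit described below.
Ndufb7: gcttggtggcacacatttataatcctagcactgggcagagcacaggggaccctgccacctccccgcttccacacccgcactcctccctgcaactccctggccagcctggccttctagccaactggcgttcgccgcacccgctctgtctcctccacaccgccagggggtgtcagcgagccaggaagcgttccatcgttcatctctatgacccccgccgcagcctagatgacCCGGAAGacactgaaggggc
Atp5e: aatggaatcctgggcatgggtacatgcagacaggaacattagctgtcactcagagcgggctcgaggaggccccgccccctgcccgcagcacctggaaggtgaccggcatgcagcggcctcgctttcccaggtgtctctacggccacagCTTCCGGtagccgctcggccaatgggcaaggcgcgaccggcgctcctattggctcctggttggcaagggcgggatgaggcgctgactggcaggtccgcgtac
Ndufa5: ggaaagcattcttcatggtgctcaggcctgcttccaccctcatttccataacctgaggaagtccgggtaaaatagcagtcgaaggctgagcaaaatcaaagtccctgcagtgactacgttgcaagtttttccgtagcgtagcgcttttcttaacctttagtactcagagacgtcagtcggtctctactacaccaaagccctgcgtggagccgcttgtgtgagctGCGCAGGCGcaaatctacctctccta
Each held 1 match: an ETS match with its first base at position -20 from the start in Ndufb7 and at -102, on the opposite strand, in Atp5e, and an NRF1 match at -26 in Ndufa5. Over windows of 300 bases, from 250 before to 50 after the start, the NRF1 letters were found in 12 of 49 members (24.5%) and in 8.87% of 17492 protein-coding genes. The ETS letters were found in 8 members (16.3%) and in 11.9% of these genes. AAGATGGCG, for YY1, was found in 5 members (10.2%, against 1.92%), and TCAAGGTCA, for the estrogen-related receptors, in 2 (4.08%, against 0.332%). The NRF1 letters can match both strands of 1 site, and each gene was counted once. Where a gene had several windows, only the window that starts furthest upstream was used. Ndufa5 had 2 windows, so its positions refer to the start furthest upstream. A match describes these letters and is neither a bound site nor a cause of a change.

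Against sham EPO, injured EPO pups showed 1 change. Ndufa5, an accessory subunit of the matrix arm of complex I, had values of 8.05, 8.24 and 8.82 in sham EPO and 8.63, 8.73 and 9.14 in injured EPO. The groups overlapped through 1 high sham EPO array, with 2 injured EPO arrays above all sham EPO arrays. The rise was 0.52 (SE 0.12), or 1.44-fold (1.21 to 1.72), with an adjusted p of 0.0046. It was the only member called higher, beside 6.05% of all rows, and none was called lower, beside 7.83% of all rows. An unadjusted p under 0.05 was found for 11 of 61 members and for 5888 of the 23238 rows. The median difference over the members was 0.090, beside -0.012 over all rows, and 42 of 61 intervals lay within 1.5-fold, as did 64.1% of those of all rows. Ndufs1 differed by 0.40 (SE 0.14, adjusted p 0.062), Atp5e by -0.50 (SE 0.20, adjusted p 0.12) and Ndufaf5 by 0.51 (SE 0.19, adjusted p 0.077). This comparison shares its sham EPO arrays with the one before, so opposite signs in the pair follow in part from those arrays. Markers again differed, with 8 of 9 neuron markers higher and 6 of 8 microglia and macrophage markers lower in injured EPO.

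With arrays centred on their medians 13 members were called higher and none lower in this comparison, beside 13.3% of all rows higher and 5.99% lower. Without injured EPO replicate 3, which stood apart, 4 were called higher, and without replicate 4 there were 5 higher and 2 lower. Ndufa5 passed in each of these settings, with differences from 0.46 to 0.63 over the 24 fits that left out 1 array, but not within code 3D (0.52, with 2 to 4 arrays a group).

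As labelled, injury alone gave no call. In injured none against sham none 0 of 61 members passed, as did 0.0% of all rows, and 9 members and 1803 rows had an unadjusted p under 0.05. The members' median difference was 0.20, beside 0.081 over all rows. Of 61 differences 57 were positive and 4 negative, beside 29.2% of all rows negative. The smallest unadjusted p was that of Ndufb11, a membrane arm subunit, with values of 5.56, 5.82 and 6.41 in sham none and 6.07, 6.47 and 7.04 in injured none (difference 0.54, SE 0.20, adjusted p 0.64). Sdhc ran from 8.36 to 8.54 in injured none, above every sham none array, but its difference of 0.19 (SE 0.07) also had an adjusted p of 0.64. For 43 members the interval lay within 1.5-fold, beside 75.1% of all rows. With arrays centred on their medians the median difference was 0.12 and 52 differences were positive, and on their upper quartiles 0.040 and 42.

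EPO among injured pups gave no call either. In injured EPO against injured none 0 of 61 members passed, beside 0.0% of all rows, with 1 member and 1892 rows at an unadjusted p under 0.05. That member was Atp5j2, a subunit of the membrane part of complex V, with values of 8.06, 8.59 and 8.98 in injured none and 8.508, 9.005 and 9.669 in injured EPO (difference 0.50, SE 0.23, adjusted p 0.59). Ndufaf2, a late complex I assembly factor, differed by -0.40 (SE 0.22). The median over the members was -0.059, beside -0.060 over all rows, and 50 members had an interval within 1.5-fold, beside 75.1% of all rows. In injured EPO against sham none 0 of 61 passed, beside 0.0% of all rows, with 2 members (Ndufb11, 0.46, SE 0.20, and Ndufb7, 0.24, SE 0.11) and 1374 rows at an unadjusted p under 0.05. There the members' median was 0.13, beside 0.024 over all rows. Of 61 differences 59 were positive and 2 negative, beside 43.2% of all rows negative. With arrays centred on medians and upper quartiles 51 and 56 were positive.

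The 2 groups that the other reading of the titles would exchange were also compared. In sham EPO against injured none 1 member rose and 9 fell, beside 8.28% of all rows higher and 11.8% lower. Markers moved in the same comparison: 8 of 9 neuron markers fell (median -0.77), and 7 of 8 microglia and macrophage (1.62), 4 of 6 astrocyte, 4 of 5 endothelial and 4 of 5 leukocyte markers rose, and their part in the result was not tested. The falls were Ndufa5, Ndufs1 and Ndufb3 of complex I, the assembly factors Ndufaf1 and Ndufaf5, Sdha, Uqcrfs1, Cox7b and Atp5a1, with Ndufb3 named after its values were seen. Ndufa5 had the smallest p, with values of 8.05, 8.24 and 8.82 in sham EPO and 8.710, 8.814 and 8.997 in injured none (difference -0.53, SE 0.12, adjusted p 0.0026). Of its sham EPO arrays 5 of 6 lay below every injured none array. Sdha, with values of 9.71, 9.97 and 10.08 in sham EPO and 10.311, 10.398 and 10.563 in injured none, showed no overlap (difference -0.49, SE 0.14, adjusted p 0.016). Ndufs1 (-0.52, SE 0.14), Uqcrfs1 (-0.40, SE 0.13), Ndufaf1 (-0.57, SE 0.17) and Atp5a1 (-0.21, SE 0.07) did not overlap between these groups either. The highest sham EPO and lowest injured none values lay close for Ndufaf1 (7.7025 and 7.7077), Uqcrfs1 (6.613 and 6.621) and Atp5a1 (11.255 and 11.262). For Ndufs1 they were 9.516 and 9.616. The share of all rows without overlap was not counted in any comparison. Ndufaf5 differed by -0.61 (SE 0.19) and Cox7b by -0.53 (SE 0.19), the latter from a row with a mean of 3.54. The rise was that of Cox4i2, with 4.92, 5.10 and 5.44 in injured none (difference 0.39, SE 0.14, adjusted p 0.045).

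Centring on array medians left no rise and 21 falls here, beside 6.71% of all rows higher and 20.4% lower. Leaving out sham EPO replicate 1 left 3 falls, and leaving out injured none replicate 1 or 3 left 5. The number of rises ran from 0 to 2 over the 24 fits that left out 1 array and differed from 1 in 13 of them, and without injured EPO replicate 3 there were 1 rise and 10 falls.

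The interaction asks whether EPO acted differently in injured and in sham pups. No member passed in either direction, beside 1.55% of all rows higher and 5.75% lower. An unadjusted p under 0.05 was found for 4 of 61 members and for 4899 of the 23238 rows. Sdhc was nearest (difference of differences -0.32, SE 0.10, adjusted p 0.058), followed among the members that passed in sham EPO against sham none by Atp5e (-0.74, SE 0.29, adjusted p 0.13). Ndufs1 gave 0.32 (SE 0.20) and Ndufb7 -0.19 (SE 0.16). The interaction subtracts the sham difference by which these members were picked, so signs opposite to it follow in part from the same arrays. The Sdhc interaction passed the threshold with only rows of 1 symbol in the fit (-0.32), with array weights (-0.32) and in 3 of the 24 fits that left out 1 array.

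The complexes were compared by the median difference of their members, without a test, since genes of 1 complex are not replicates. In sham EPO against sham none the medians were 0.13 for complex I, 0.18 for complex II, 0.013 for complex III, -0.0019 for complex IV, 0.0024 for complex V and -0.067 for the assembly factors. Centring on array medians lowered these to -0.047, 0.011, -0.16, -0.17, -0.17 and -0.24, beside -0.15 for all rows. Complex II lay highest and the assembly factors lowest, an order that centring cannot change, since it shifts every gene of a comparison by the same amount. In injured EPO against sham EPO the medians were 0.032, 0.032, 0.12, 0.079, 0.13 and 0.13, and 0.16, 0.16, 0.24, 0.20, 0.25 and 0.26 after centring, beside -0.012 and 0.11 for all rows. The assembly factors had 6 of 6 positive differences there.

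**Figure D4:**
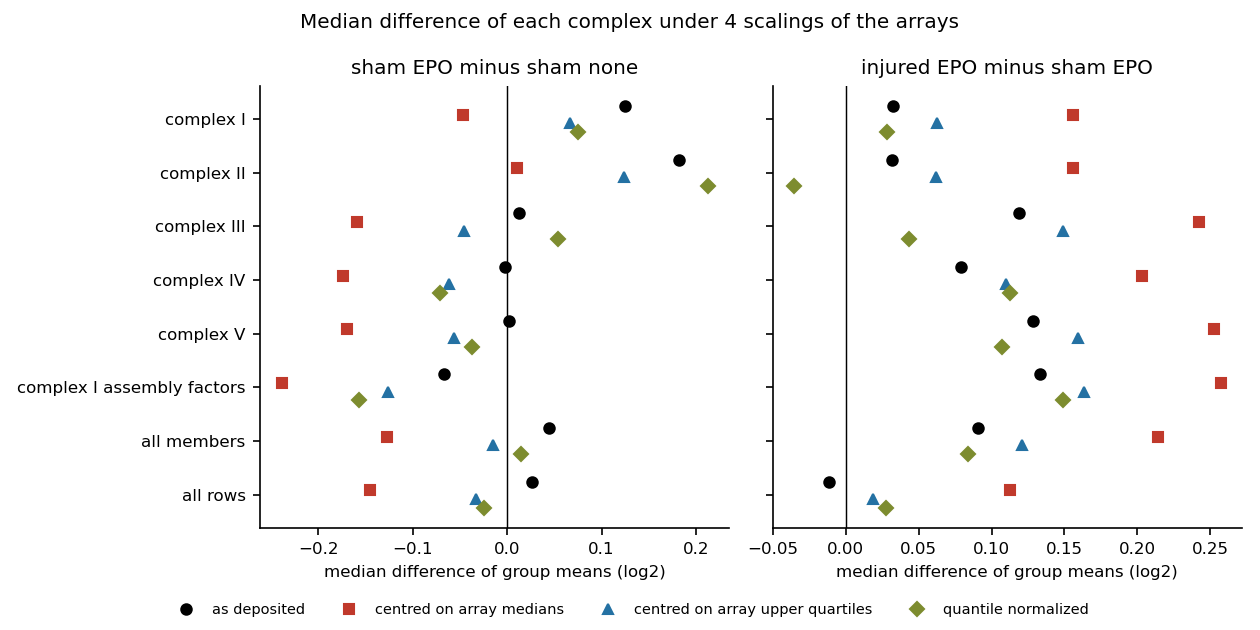
Median over members of the difference of group means (log2, x axis) for each complex, for all 61 members and for all 23238 rows (y axis), in sham EPO minus sham none (left) and injured EPO minus sham EPO (right), with a marker for each of 4 scalings. Centring on array medians moves every set to the left in the left panel (all rows from 0.026 to -0.15) and to the right in the right panel (all rows from -0.012 to 0.11).

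Array by array, each member was centred on its mean over the 24 arrays and averaged within its complex. Complex I means ran from -0.31 to 0.07 in sham none, -0.17 to 0.14 in sham EPO, -0.12 to 0.18 in injured none and -0.44 to 0.29 in injured EPO, so all groups overlapped. Complex IV spread least, with a pooled SD within groups of 0.095, beside 0.19 for complexes I and III, 0.15 for complex II, 0.12 for complex V and 0.23 for the assembly factors. The sets range from 4 to 27 genes, and complex IV holds low rows such as Cox7b2 and Cox7b (means of 2.32 and 3.54). These spreads therefore do not rank the complexes by stability. The assembly factors were the 1 set whose injured none arrays (0.09 to 0.31) all lay above the sham EPO arrays (-0.42 to -0.01). The SD of the members' array means was 0.25 in injured EPO and 0.08 to 0.11 in the other groups.

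**Figure D5:**
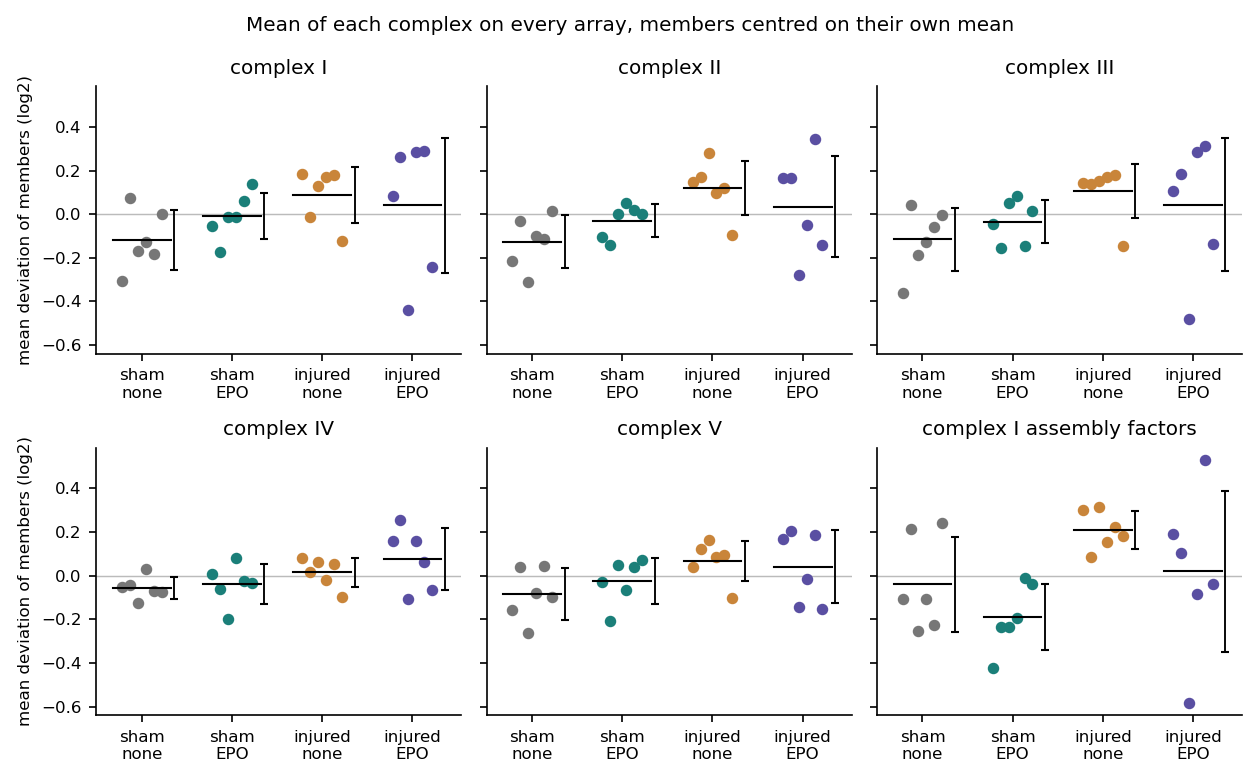
Mean deviation of the members of each complex from their own means (log2, y axis) on every array, in 6 panels with 4 groups of 6 arrays (x axis); bars are group means and whiskers 1 SD. The injured EPO arrays of the assembly factors spread most widely (-0.58 to 0.53), and the complex IV points lie within -0.20 and 0.26.

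Members varied together. After removal of group means, the median correlation across the 24 arrays was 0.40 for 460 pairs of the same complex and 0.30 for 1370 pairs of different complexes. With arrays centred on their medians it was 0.22 and 0.115, and on their upper quartiles 0.19 and 0.12. Pairs of other rows were not taken for comparison. The pairs share arrays and the level of each array, so these values describe the 24 arrays. Across the 61 genes the Spearman correlation of the difference with the length of the gene on the chromosome ran from -0.36 to 0.18 over the 7 contrasts. It was -0.26 for sham EPO against sham none, -0.18 for injured none against sham none, -0.36 for injured EPO against sham none and -0.16 for sham EPO against injured none. It was -0.051 for injured EPO against injured none, 0.082 for injured EPO against sham EPO and 0.18 for the interaction. Genes are not independent replicates, and no test was made.

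Other mitochondrial genes were followed through lists of enzymes, carriers, regulators and assembly factors. Of 16 genes of pyruvate dehydrogenase and the citric acid cycle 1 rose and 5 fell in sham EPO against sham none (median -0.14), beside the 11.5% and 7.6% of all rows. Idh2, the NADP-dependent isocitrate dehydrogenase, had values of 7.75, 7.81 and 7.97 in sham none and 8.53, 8.73 and 9.19 in sham EPO (difference 0.95, SE 0.17, adjusted p 2e-04). Idh3a, the catalytic subunit of the NAD-dependent enzyme of the cycle, had values of 9.89, 10.17 and 10.53 and of 9.38, 9.57 and 9.82 (difference -0.61, SE 0.13, adjusted p 0.0016). Neither pair of groups overlapped. In injured EPO against sham EPO 5 of the 16 rose and 1 fell, beside 6.05% and 7.83% of all rows, the fall being Idh2 (-0.72, SE 0.17).

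Of 10 mitochondrial carriers and import genes 1 rose and 1 fell in sham EPO against sham none, beside 11.5% and 7.6% of all rows. They were the paired aspartate-glutamate carriers: Slc25a12, the form of brain and muscle, differed by -0.63 (SE 0.12), and Slc25a13, the form best known from liver, by 0.74 (SE 0.13). In the interaction both passed (0.55, SE 0.17, and -0.79, SE 0.18), beside 1.55% of all rows higher and 5.75% lower. The interaction subtracts the same sham difference by which they were picked, so it is not separate support. Of 15 genes of mitochondrial biogenesis 2 rose and 2 fell, beside the same shares of all rows. Ppargc1a, a coactivator of mitochondrial genes, had values of 7.16, 7.49 and 7.83 in sham none and 6.73, 7.05 and 7.20 in sham EPO (difference -0.50, SE 0.15, adjusted p 0.018), while Pprc1, a related coactivator, differed by 0.47 (SE 0.14, adjusted p 0.019).

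Of 29 assembly factors without the Nduf prefix 1 rose and 2 fell in sham EPO against sham none, beside 11.5% and 7.6% of all rows. Ttc19, which keeps complex III in order, ran from 7.87 to 8.38 in sham none and from 7.18 to 7.73 in sham EPO, with no overlap (difference -0.66, SE 0.12, adjusted p 3e-04). Surf1, a complex IV assembly factor, differed by 0.44 (SE 0.13, adjusted p 0.018). In injured EPO against sham EPO 4 of the 29 rose and none fell, beside 6.05% and 7.83% of all rows, among them Ttc19 (0.53, SE 0.12) and Timmdc1, which helps to build the membrane arm of complex I (0.36, SE 0.12). In sham EPO against injured none 8 fell and none rose, beside 11.8% and 8.28% of all rows, with Ttc19 at -0.79 (SE 0.12) and Tmem70, a complex V assembly factor, at -0.61 (SE 0.15). With arrays centred on their medians the sham comparison gave, higher and lower, 1 and 9 for the citric acid cycle list, 1 and 4 for the carriers, 0 and 6 for biogenesis and 0 and 7 for these assembly factors, beside 7.7% of all rows higher and 18.4% lower. Beside these lists, the neuron markers had a median difference of -0.71 and the microglia and macrophage markers of 1.94 in sham EPO against sham none, and their part in the results was not tested.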

How the data were processed

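The deposited table holds log2 expression values, which the authors obtained by RMA in Affymetrix Expression Console, as the submitters' processing notes list. The sources used here give no version, summary level or genome build. RMA subtracts background and normalizes arrays by quantiles, so a difference is relative to the rest of its array. The platform annotation named the rows, and all 61 members had the same symbol in RefSeq. Cross-hybridisation with pseudogenes of these families was not tested.

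All 23238 rows entered 1 limma fit (version 3.58.1, R 4.3.3) on 24 arrays with a mean for each group, which left 20 residual degrees of freedom. There were 7 contrasts, with Benjamini-Hochberg adjustment over all rows and a threshold of 0.05. Groups follow the titles and match the labelled mouse status and treatment; replicate numbers are only names. The members and gene lists were chosen with earlier results of these data known. Alternatives changed the scaling (centring on upper quartiles was added after seeing the data), dim rows, rows with 1 symbol, variance model, array weights, title code (7 values), arrays in the fit, reading of the titles, Eif2s3y as a covariate, the threshold and each array. Genes named are core subunits, tissue isoforms, members past the threshold or with the smallest p, and a few genes of each other list. The fit was tested on simulated data with independent noise in each row and no shift between arrays. That test therefore does not cover the dependence of the calls on array level. The number of arrays, 6 per group, limits precision.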

Additional observations from a re-analysis of the deposited data

Results flagged for a closer look

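Of 132 sets of 6 arrays, 8 had an array further from its nearest neighbour than Dixon's 95% limit, and chance gives about 1 in 20. Atp5b had a low injured none array at 12.079 (the next at 12.271), Uqcrq a low injured none array at 9.522, and the mean deviation of complex III a low injured none array at -0.147, with the next at 0.137. Sdhc had a high injured none array at 8.542. Ndufa5 had a high sham EPO array at 8.818, with the next at 8.302, and it is the array that makes sham EPO and injured EPO overlap. Cox7b had a high injured EPO array at 4.370, Cox8b a high sham none array at 5.392 and Ndufaf2 a low injured EPO array at 5.792. No cause was tested for any of them.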

How the results depend on the processing

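In sham EPO against sham none (3 higher, 1 lower) the members called higher and lower were 6 and 2 after quantile normalization, 0 and 8 with arrays centred on their medians, and 0 and 0 with the title code as a fixed block, within code 3D, with the titles read the other way and at an adjusted p of 0.01. There were 2 lower with arrays centred on upper quartiles, and 5 higher when only the groups of the contrast entered the fit. In injured EPO against sham EPO (1 higher) the count higher was 4 after quantile normalization (with 1 lower), 13 and 3 under the median and upper quartile centring, 2 with dim rows left out and with only rows of 1 symbol, 5 with array weights, and 0 within code 3D and with the titles read the other way. In sham EPO against injured none (1 higher, 9 lower) the higher count was 3 after quantile normalization, upper quartile centring or a fit on these groups only, and 0 with median centring, trend and robust eBayes, array weights, the title code block, code 3D or the threshold of 0.01. The lower count was 21 and 4 under the 2 centrings, 5 with the block, 0 within code 3D and 2 at 0.01, and reading the titles the other way turned it to 9 higher and 1 lower. That reading also gave 3 higher and 1 lower in injured none against sham none and 1 higher in injured EPO against injured none. The interaction had 1 lower with only rows of 1 symbol and with array weights, Sdhc in both. Apart from the shares given in the Results, the share of all rows called was not set beside these counts. The same holds for the counts from fits that left out 1 array. Such counts cannot be read as particular to the members.

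Leaving out each array in turn gave 1 to 4 higher and 0 to 2 lower in sham EPO against sham none, 1 to 5 and 0 to 2 in injured EPO against sham EPO, 0 to 2 and 3 to 11 in sham EPO against injured none, and 0 to 2 lower in the interaction. The median difference of complex IV in sham EPO against sham none ran from -0.026 to 0.11 over these fits, with the highest value without sham EPO replicate 3.

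Median centring moved the median difference in sham EPO against sham none to 0.011 for complex II, -0.17 for complex IV and -0.17 for complex V, and in injured EPO against sham EPO to 0.20 for complex IV and 0.25 for complex V. Dim rows left out gave 0.095 for complex IV. The other reading of the titles gave 0.23, 0.16 and 0.24 for complexes III and V and the assembly factors in the former and -0.059 and -0.16 for complex V and the assembly factors in the latter. It reversed Ndufs1 in sham EPO against sham none (0.082), Ndufa5 in injured EPO against sham EPO (-0.0097), and, by construction, Ndufaf5 (0.61), Ndufaf1 (0.57), Ndufa5 (0.53), Cox7b (0.53) and Ndufs1 (0.52) in sham EPO against injured none. No member had several rows, so averaging rows per gene was the same fit, and a fit on the groups of the interaction only is the fit used.

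No paired analysis was possible because replicate numbers were given in accession order and the labels name no pairs. Over members named singly, 62 values no longer passed, 15 newly passed, 7 that had passed reversed, and 1203 kept their side of the threshold. The 1203 include differences near 0 that changed sign without passing, and these sign changes were not counted. In sham EPO against sham none, leaving out each array in turn moved Ndufv1 from -0.0718 to 0.0049 and Cox8b from -0.1185 to 0.1388. The cause of these changes was not tested. Values on arrays have no counting depth; low rows such as Cox7b2, Cox7b and Ndufa7 (means of 2.32, 3.54 and 3.64) limit what a small difference can show.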
